A study of Mus musculus with 6 samples.

Results

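The interferon-inducible GTPases were examined here through 10 genes of the guanylate-binding protein (GBP) and immunity-related GTPase (IRG) families, out of 18182 genes in the deposited files. They were Gbp2, Gbp3, Gbp5, Gbp6, Gbp7 and Gbp9 on the GBP side, and Irgm1, Irgm2, Igtp and Iigp1 on the IRG side, each matched by its gene symbol. They were picked because they differed between the same libraries that are compared below, so their differences are given as a description and carry no test. The libraries were made from LLC cells, a line from the Lewis lung carcinoma of the mouse, marked with red fluorescent protein (RFP). These cells grew under the skin of wild-type C57BL/6 mice, and RFP-positive cells were sorted from the primary tumours by flow cytometry. In the 3 libraries of LLC alone the mice had received LLC-RFP cells only, and in the 3 libraries of LLC with BMSCs they had received LLC-RFP cells together with bone marrow-derived mesenchymal stem cells (BMSCs). The comparison asked what the presence of BMSCs changed in the cancer cells. Female mice aged 6 weeks are named for the allografts of LLC-luciferase cells, and the sources used here state neither age nor sex separately for the LLC-RFP grafts. They do not say whether a library came from 1 mouse or from several, so errors and p values describe the spread between these libraries, which may be technical. The line is a single established carcinoma, and the mice kept their own immune and stromal cells.

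GBPs and IRGs are large GTPases that cells make when interferon reaches them, and they assemble on the vacuoles of intracellular microbes and on damaged membranes. The GBPs coat and disrupt such membranes and help to start inflammasomes. Among the IRGs, Irgm1, Irgm2 and Igtp (also known as Irgm3) are regulators that sit on the cell's own membranes and hold the other IRGs, such as Iigp1, in an inactive state. Interferon reaches these genes through 2 short DNA elements, the interferon-stimulated response element (ISRE), read by IRF factors and by the complex of Stat2 and Irf9, and the gamma-activated site (GAS), read by STAT dimers.

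The promoters of the members are shown because the members moved together between the groups and because these elements lie in them. RefSeq windows on GRCm38.p6, from 250 bases before to 50 bases after the annotated start of each gene, were at hand for 7 of the 10 members (for Gbp3 the first of 2 starts is shown). Each is written 5′ to 3′ along the gene. Capitals mark every match, on either strand, to the ISRE core GAAANNGAAA or to the GAS letters TTCNNNGAA, where N is any base. A match on the other strand reads as its complement, TTTCNNTTTC, for the ISRE core.
Gbp2, chr3:142620413-142620712, plus strand: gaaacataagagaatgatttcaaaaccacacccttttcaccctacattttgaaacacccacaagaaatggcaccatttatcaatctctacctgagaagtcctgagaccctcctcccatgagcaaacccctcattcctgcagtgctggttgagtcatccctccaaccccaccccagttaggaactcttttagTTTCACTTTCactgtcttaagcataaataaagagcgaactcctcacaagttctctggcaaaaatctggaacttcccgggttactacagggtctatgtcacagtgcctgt
Gbp3, chr3:142559794-142560093, plus strand: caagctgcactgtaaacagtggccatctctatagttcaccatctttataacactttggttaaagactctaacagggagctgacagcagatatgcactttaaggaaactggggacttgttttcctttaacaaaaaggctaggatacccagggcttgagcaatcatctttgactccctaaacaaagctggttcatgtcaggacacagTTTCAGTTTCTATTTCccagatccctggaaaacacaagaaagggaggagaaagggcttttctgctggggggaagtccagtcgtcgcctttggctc
Gbp5, chr3:142496684-142496983, plus strand: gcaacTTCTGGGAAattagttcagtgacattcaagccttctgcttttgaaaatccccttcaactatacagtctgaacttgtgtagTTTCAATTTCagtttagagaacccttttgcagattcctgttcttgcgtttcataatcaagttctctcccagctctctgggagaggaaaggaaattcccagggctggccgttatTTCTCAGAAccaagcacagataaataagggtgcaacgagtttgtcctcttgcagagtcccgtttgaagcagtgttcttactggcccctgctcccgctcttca
Gbp7, chr3:142530086-142530385, plus strand: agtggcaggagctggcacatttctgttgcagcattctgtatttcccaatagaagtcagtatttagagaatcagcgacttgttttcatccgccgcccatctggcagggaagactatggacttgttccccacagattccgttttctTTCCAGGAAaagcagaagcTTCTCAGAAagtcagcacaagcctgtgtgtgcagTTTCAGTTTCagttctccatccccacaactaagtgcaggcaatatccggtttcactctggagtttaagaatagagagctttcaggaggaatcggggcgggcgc
Irgm1, chr11:48871371-48871670, minus strand: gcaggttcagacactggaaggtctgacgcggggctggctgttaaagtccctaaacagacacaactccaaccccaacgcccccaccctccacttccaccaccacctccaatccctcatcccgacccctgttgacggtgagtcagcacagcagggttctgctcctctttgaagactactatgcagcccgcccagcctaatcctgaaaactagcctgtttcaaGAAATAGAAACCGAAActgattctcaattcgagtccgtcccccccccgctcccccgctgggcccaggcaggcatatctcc
Irgm2, chr11:58214727-58215026, plus strand: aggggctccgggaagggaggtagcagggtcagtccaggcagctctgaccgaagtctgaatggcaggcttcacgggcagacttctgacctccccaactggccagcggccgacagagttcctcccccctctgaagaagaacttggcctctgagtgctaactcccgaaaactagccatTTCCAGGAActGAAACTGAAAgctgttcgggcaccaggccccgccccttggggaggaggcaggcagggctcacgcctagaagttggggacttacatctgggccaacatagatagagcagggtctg
Igtp, chr11:58199306-58199605, plus strand: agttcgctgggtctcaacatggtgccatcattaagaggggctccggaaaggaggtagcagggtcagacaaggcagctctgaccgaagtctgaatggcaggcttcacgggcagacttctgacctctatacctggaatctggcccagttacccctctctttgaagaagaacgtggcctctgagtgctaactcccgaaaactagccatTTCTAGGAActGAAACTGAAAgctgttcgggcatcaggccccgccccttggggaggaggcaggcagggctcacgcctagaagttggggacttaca
All 7 windows held at least 1 ISRE core (the window of the other Gbp3 start held none), and 4 of them (Gbp5, Gbp7, Irgm2 and Igtp) also held a GAS. The letters of GAS and ISRE core did not overlap in any of them.

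The regulatory IRG genes were the only members at or above 1 FPKM (fragments divided by transcript length and library size, the scale on which genes can be compared) in LLC alone. Irgm1, which also acts in autophagy, stood at 5.87, 5.86 and 5.98 FPKM in the 3 LLC alone libraries and at 34.99, 38.1 and 37.04 FPKM in the 3 LLC with BMSCs libraries. Igtp, which sits on the endoplasmic reticulum, stood at 2.32, 2.63 and 2.42 FPKM in LLC alone and at 22.25, 24.49 and 23.94 FPKM in LLC with BMSCs. Irgm2, found on the Golgi apparatus, stood at 1.26, 1.04 and 1 FPKM in LLC alone and at 11.95, 11.46 and 11.3 FPKM in LLC with BMSCs. In these genes every library of LLC with BMSCs lay well above every library of LLC alone, and the libraries of a group lay close together. From the estimated counts, with standard errors (SE) of the fit, the log2 fold change was 2.61 ± 0.059 (SE) for Irgm1, 3.25 ± 0.075 (SE) for Igtp and 3.37 ± 0.096 (SE) for Irgm2.

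Iigp1, an effector IRG that binds to the vacuole of Toxoplasma, was listed at 0 in 3 of 3 LLC alone libraries. In LLC with BMSCs it stood at 2.43, 2.62 and 2.58 FPKM, or 308, 324 and 321 normalized counts (counts scaled to the mean effective library size). Set against a floor of 3 counts per library in LLC alone, it was at least 100.1-fold higher in LLC with BMSCs. This floor, like the other bounds and intervals given here, covers counting error only. The effector thus separated the groups by presence, and the regulators by level.

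The GBP genes of chromosome 3 were close to absent in LLC alone. Gbp2, which carries a lipid anchor at its end, stood at 0.26, 0.15 and 0.16 FPKM in LLC alone and at 20.19, 22.6 and 21.48 FPKM in LLC with BMSCs. Gbp3 stood at 0.08, 0.06 and 0.03 FPKM and at 9.88, 10.52 and 10.32 FPKM. Gbp7 stood at 0.06, 0.09 and 0.05 FPKM and at 5.86, 5.39 and 5.86 FPKM. In all 3 genes the levels in LLC alone rested on few reads, such as 9, 5 and 4 counts for Gbp3, whereas those in LLC with BMSCs rested on 1133 counts or more per library. Their log2 fold changes were 6.75 for Gbp2 ± 0.144 (SE), 7.48 for Gbp3 ± 0.156 (SE) and 6.41 for Gbp7 ± 0.134 (SE). Gbp5, which helps to assemble the NLRP3 inflammasome, had a single read in LLC alone, with 1, 0 and 0 counts, against 141, 163 and 174 counts in LLC with BMSCs (1.07, 1.25 and 1.34 FPKM). The ratio of its groups was 447, with a 95% exact counting interval of 79.9 to 17711.

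The GBP genes of chromosome 5 differed less. Gbp6 stood at 0.4, 0.36 and 0.45 FPKM in LLC alone and at 2.09, 2.06 and 1.86 FPKM in LLC with BMSCs, a log2 fold change of 2.28 ± 0.117 (SE) and the lowest of the 10. Gbp9 stood at 0.29, 0.39 and 0.07 FPKM in LLC alone and at 2.14, 2.61 and 2.51 FPKM in LLC with BMSCs, a log2 fold change of 3.43 ± 0.379 (SE). LLC alone replicate 3 was low in Gbp9, at 12 normalized counts beside 52.4 and 62.8 in the other libraries of that group. Without that library the log2 fold change of Gbp9 was 2.97. The groups did not overlap in either gene.

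**Figure D1:**
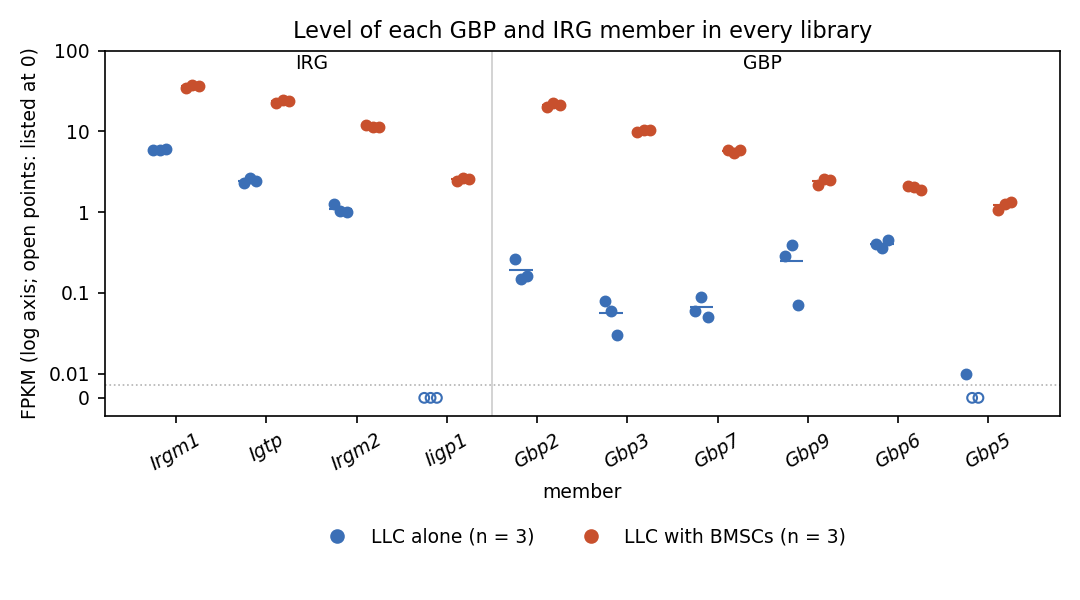
FPKM of each member on a log axis (values listed at 0 are drawn as open points under the dotted line) in the 3 libraries of LLC alone (blue) and of LLC with BMSCs (red), with short lines at the group means. The groups do not overlap for any of the 10 members, and only Irgm1, Igtp and Irgm2 reach 1 FPKM in LLC alone.

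All 10 members were past an adjusted p of 0.05 in the higher direction in the fit across genes, beside 31.5% of the 13353 genes tested. In normalized counts their groups did not overlap in 10 of 10 cases, beside 36.7% of tested genes whose LLC with BMSCs libraries all lay above. At an adjusted p under 0.001 with a log2 fold change of 1 or more, 10 of 10 were past, beside 6.81% of tested genes. Nothing is read from these counts, because the members were picked on this comparison. The median log2 fold change of the members was 4.92, with Iigp1 set at its bound or at its fitted value, and that of all tested genes was 0.01.

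The members did not share a common fold, and their order and shares differed between the groups. Summed over the 10 members, the level was 10.6, 10.6 and 10.2 FPKM in LLC alone and 113, 121 and 118 FPKM in LLC with BMSCs, a ratio of 11.3 between the means. The 6 GBP genes made up 10.4%, 9.92% and 7.48% of that sum in LLC alone and 36.5%, 36.7% and 36.7% in LLC with BMSCs. Their own sum went from 0.97 ± 0.184 to 43.0 ± 1.63 FPKM (SD, n = 3 each), a ratio of 44.3, while the 4 IRG genes went from 9.46 ± 0.0656 to 74.4 ± 2.56 FPKM (SD, n = 3 each), a ratio of 7.86. Irgm1 held 56.6% ± 1.94 of the sum in LLC alone and 31.3% ± 0.234 in LLC with BMSCs (SD, n = 3 each). Gbp2 held 1.82% ± 0.564 and 18.2% ± 0.391 (SD, n = 3 each).

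**Figure D2:**
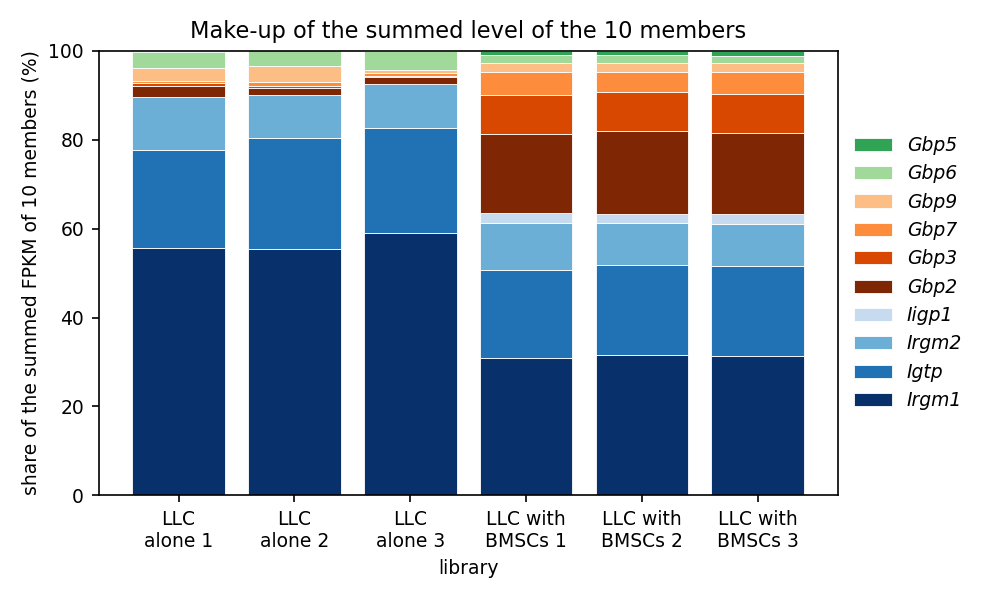
Share of the summed FPKM of the 10 members that each member took in each of the 6 libraries, with the IRG genes in blue at the bottom of each bar and the GBP genes above them. The GBP genes fill 7.48% to 10.4% of the bars of LLC alone and 36.5% to 36.7% of those of LLC with BMSCs.

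In LLC alone the order of the mean FPKM values was Irgm1, Igtp, Irgm2, Gbp6, Gbp9, Gbp2, Gbp7, Gbp3, Gbp5 and Iigp1. The ranges of Gbp6 and Gbp9, of Gbp9 and Gbp2, of Gbp7 and Gbp3 and of Gbp5 and Iigp1 overlapped, so these neighbours did not differ beyond their spread. In LLC with BMSCs the order was Irgm1, Igtp, Gbp2, Irgm2, Gbp3, Gbp7, Iigp1, Gbp9, Gbp6 and Gbp5, with overlap between Igtp and Gbp2 and between Iigp1 and Gbp9. Gbp2 thus moved from the sixth place to the third, and Gbp6 from the fourth to the ninth.

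Near-identical relatives of the members shared reads with them, since the authors' counts divide a read among the genes it matches. Gbp6, Gbp9, Irgm2 and Igtp had counts that were not whole in 6 of 6 libraries, and Gbp3, Gbp5, Gbp7 and Irgm1 had whole counts throughout. Summing counts over relatives gave 6 sets, 4 of them with members, whose sums were whole within 0.02 counts in each library. These sets were found from the counts themselves. Igtp and Irgm2, whose exons overlap on the same strand in GENCODE M21, summed to 416, 297 and 382 counts in LLC alone and to 3826, 3904 and 3809 counts in LLC with BMSCs. Their joint log2 fold change was 3.30 ± 0.061 (SE), between those of the single genes.

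On chromosome 5, Gbp6 and Gbp9 shared reads with Gbp4, Gbp8, Gbp10 and Gbp11. The 6 genes summed to 239, 202 and 246 counts in LLC alone and to 1288, 1336 and 1234 counts in LLC with BMSCs, a log2 fold change of 2.39 ± 0.08 (SE). The sum did not show the low value of LLC alone replicate 3 that Gbp9 showed. In that library Gbp9 took 5.16% of the set, against 23.4% and 24.1% in the other LLC alone libraries and 32.2% to 38.2% in LLC with BMSCs. Gbp6 took 25.3% to 36.4% in LLC alone and 28.2% to 30.8% in LLC with BMSCs. The joint value of 2.39 does not depend on how the shared reads were split, but it is a value of the whole set, in which Gbp4 took 32.7% to 44.0% in LLC alone and 32.1% to 34.9% in LLC with BMSCs, and not of Gbp6 or Gbp9.

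**Figure D3:**
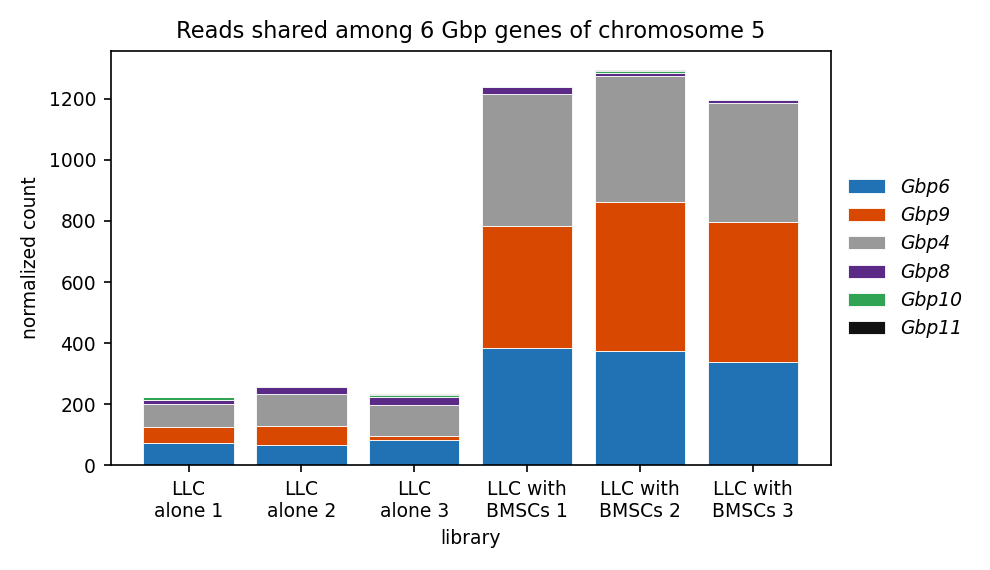
Normalized counts of the 6 Gbp genes of chromosome 5 that share reads, stacked for each of the 6 libraries. The stacks of LLC alone reach 224 to 261 and those of LLC with BMSCs 1200 to 1292, while the orange part of Gbp9 is thinnest in LLC alone replicate 3.

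The other sets with members changed little by summing. Gbp2 held 92.3% to 100% of the reads of its set with Gbp2b, which had a log2 fold change of 6.70 against 6.75 for Gbp2 by itself. Iigp1 held 99.7% to 100% of its set with Iigp1b in LLC with BMSCs. Outside these sets, exons of Gbp6 overlap those of Gm43302 and exons of Gbp7 overlap those of the pseudogene Gm43802, each on the same strand, and exons of Gbp2 overlap Mir6381 on the other strand. The sources used here do not say whether strand was used in counting.

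The files also divide some members among transcripts. The known transcript of Irgm1 took 64.7% to 76.1% of its FPKM in LLC alone and 67.4% to 73.7% in LLC with BMSCs, and a transcript that the authors' pipeline assembled took the rest. These ranges overlap. Gbp3 was counted on a single RefSeq transcript in LLC alone, on 9, 5 and 4 reads, and was spread over 4 transcripts in LLC with BMSCs, where another RefSeq transcript took 49.0% to 58.0%. The few reads in LLC alone cannot show such a split.

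Relatives outside the 10 members were tested. Of 37 listed symbols of both families and of their relatives, 25 were measured and 19 tested. Among the IRG genes and the very large inducible GTPases (GVIN), 12 of 12 tested genes rose (31.5% of all tested genes did). This count was largely set by the filter on low counts, because all 12 had under 20 counts in every LLC alone library and genes that were low in both groups were not tested. With at least 10 counts in every library, only F830016B08Rik of these 12 was left to test, and it rose. Of all relatives 6 were then left, of which Gbp4, F830016B08Rik and Irgq rose. Atl1, Atl2 and Atl3 did not pass that test. For the 10 IRG and GVIN genes that had counts in LLC alone, the log2 fold changes ran from 2.04 for F830016B08Rik to 6.44 for Tgtp2. Of the 19 tested relatives 0 fell, also at an unadjusted p under 0.05 with edgeR and in DESeq2, while with length trends removed Atl2 passed the test in the lower direction at -0.26 (adjusted p = 0.000634 with edgeR).

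The effector IRGs rose from a few reads. Tgtp2 (Irgb6 family) had 1.41, 4.65 and 1.88 normalized counts in LLC alone and 236, 284 and 233 in LLC with BMSCs, a log2 fold change of 6.44 ± 0.26 (SE, edgeR adjusted p = 1.08e-06). Its near-identical neighbour Tgtp1 had a log2 fold change of 5.23 (5.94 without LLC alone replicate 3), and as reads are shared between them, the joint value of 5.69 ± 0.205 (SE) does not depend on the split between them. Ifi47 (Irgd) had 8.44, 6.45 and 16 normalized counts in LLC alone and 250, 300 and 272 in LLC with BMSCs, a log2 fold change of 4.67 ± 0.233 (SE, edgeR adjusted p = 3.03e-06). Gm12250 (Irgb10), which acts with GBPs on bacteria, rose by 5.07 ± 0.319 on the log2 scale (SE, edgeR adjusted p = 9.44e-06). Like Iigp1, these effectors stood near 0 in LLC alone while the regulators did not.

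The remaining genes of that group moved the same way. Gm12185 rose by 5.86 (5.24 without LLC alone replicate 1), Gm4841 by 4.64 and 9930111J21Rik1 by 2.56 on the log2 scale, all with an adjusted p under 0.05 from edgeR's test. Gm4951 and Gm1966 had no counts in LLC alone and were at least 14.55-fold and at least 5.792-fold higher. Gvin1 and Gm4070 rose by 3.79 and 3.85, and the 3 GVIN genes that share reads rose jointly by 3.93 ± 0.171 (SE). Gm5431, 9930111J21Rik2 and Iigp1b fell under the filter on low counts and were not tested.

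Among the GBP genes outside the members, Gbp4 rose and Gbp8 did not pass the test. Gbp4 had 73.2, 104 and 102 normalized counts in LLC alone and 434, 415 and 388 in LLC with BMSCs, a log2 fold change of 2.16 ± 0.139 (SE, edgeR adjusted p = 1.05e-05). Gbp2b rose by a ratio of 34.0 (95% exact counting interval 11.3 to 167), with an adjusted p of 6.84e-05 from the same test. Its fitted log2 fold change of 4.93 rested on 3 counts in LLC alone and was 5.71 without replicate 1 of that group and 4.33 without replicate 3. Gbp8, read from the same chromosome 5 set as Gbp6 and Gbp9, had 15.9, 23.2 and 25.5 normalized counts in LLC alone and 21.3, 7.74 and 10.8 in LLC with BMSCs. Its log2 fold change was -0.69 ± 0.384 (SE, edgeR adjusted p = 0.15), and without LLC with BMSCs replicate 1 it was -1.21 (adjusted p = 0.0246 with edgeR). It took 7.11% to 11.0% of the reads of that set in LLC alone and 0.599% to 1.72% in LLC with BMSCs. Gbp10 and Gbp11 were too low to be tested.

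Relatives that are not known as interferon-inducible served as a comparison within the superfamily. The atlastins Atl1, Atl2 and Atl3, which shape the endoplasmic reticulum, had log2 fold changes of 0.24, -0.11 and 0.17, and none passed the test (adjusted p = 0.252, 0.107 and 0.355 with edgeR). Irgq, an IRG-like quasi-GTPase, rose by 0.71 ± 0.118 (SE, edgeR adjusted p = 0.00125). Irgc1 was not tested.

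**Figure D4:**
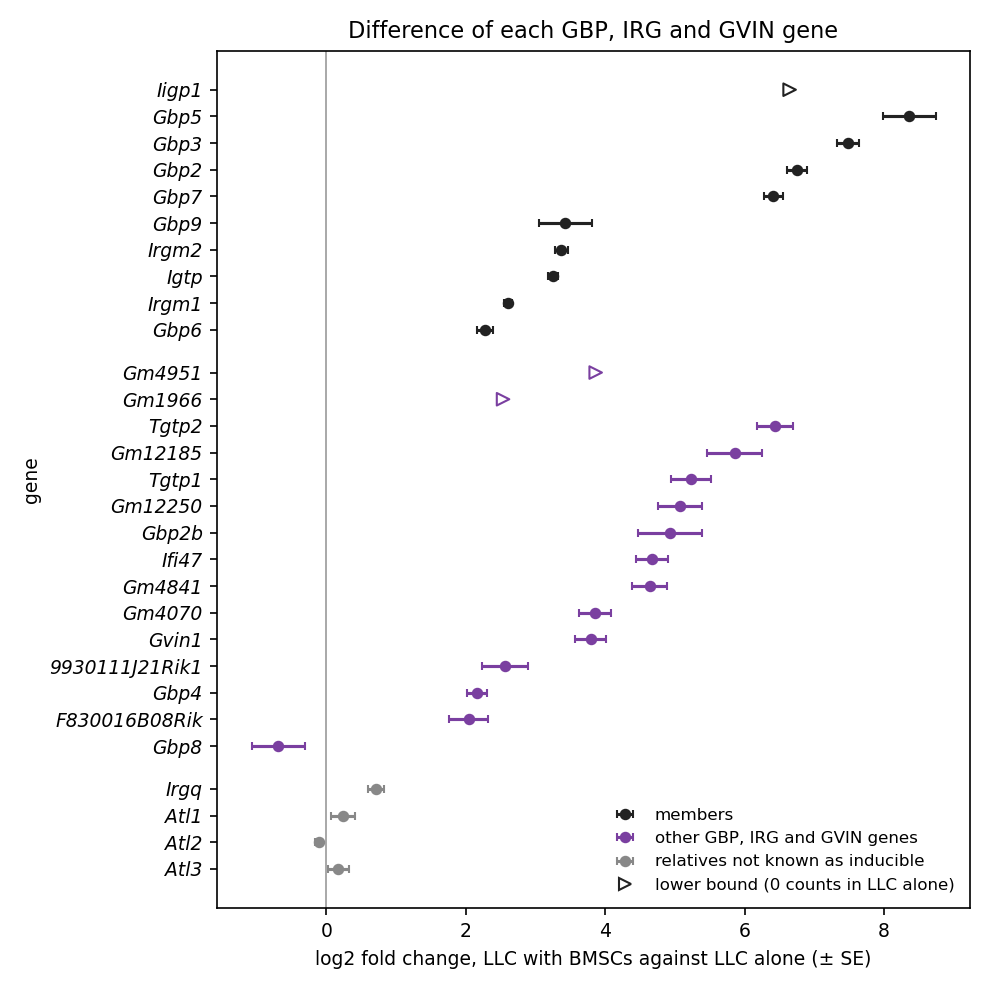
Log2 fold change of LLC with BMSCs against LLC alone with its standard error, from 3 libraries each, for the 10 members, 15 other GBP, IRG and GVIN genes and 4 relatives not known as inducible. Open triangles are lower bounds for genes with no count in LLC alone. Gbp8, at -0.69, is the only GBP or IRG gene drawn left of 0 apart from the relative Atl2.

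The promoter windows shown above were then set beside those of all genes. The ISRE core occurred in 3.44% of the 32851 windows in the RefSeq table (3.99% of its 27025 genes), in 7 of the 7 members with a window and in 7 of the 10 other GBP, IRG and GVIN genes with a window. The 4 relatives not known as inducible (Irgq, Atl1, Atl2 and Atl3) had windows with 0 ISRE cores and 0 GAS. The GAS letters occurred in 8.3% of windows (9.55% of genes), in 4 of the 7 members and in 4 of those 10 genes. In the GBP members the ISRE core lay on the strand opposite to the gene, at -59 relative to the start in Gbp2, at -45 and -39 in Gbp3, at -165 in Gbp5 and at -53 in Gbp7. In the IRG members it lay on the gene's own strand, at -30 and -24 in Irgm1, at -64 in Irgm2 and at -34 in Igtp. This did not hold for all IRG genes, since Gm12250 had its cores on the opposite strand, at -91 and -46. Gbp3 and Irgm1 each held 2 overlapping cores in a run of 16 bases. No window was at hand for Gbp6, Gbp9 and Iigp1.

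In Irgm2 and Igtp a GAS was followed at once by an ISRE core on the same strand. These letters, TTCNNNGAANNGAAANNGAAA, were noticed in those windows and then searched in all others on both strands. They were found in 5 of the 32851 windows (0.0152%), and the 5 genes were Irgm2, Igtp, Tgtp1, Tgtp2 and Gm12185, IRG genes of chromosome 11. Their log2 fold changes were 3.37, 3.25, 5.23, 6.44 and 5.86. The windows share much of their sequence, with 82.3% identical bases between Igtp and Irgm2 and 95% between Tgtp2 and Gm12185, while the other pairs had 58.3% to 74.7%. They are thus not 5 independent cases.

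Most genes with an ISRE core lie outside the GBP and IRG families. Of the 376 tested genes outside these lists with an ISRE core in a window, 151 rose (40.2%), and their median was 0.15 on the log2 scale. Of the 9813 without it, 3024 rose (30.8%), with a median of 0.00. For the GAS letters the shares were 30.7% of 840 genes with and 31.2% of 9349 genes without. A match of letters is no evidence that a factor was bound.

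**Figure D5:**
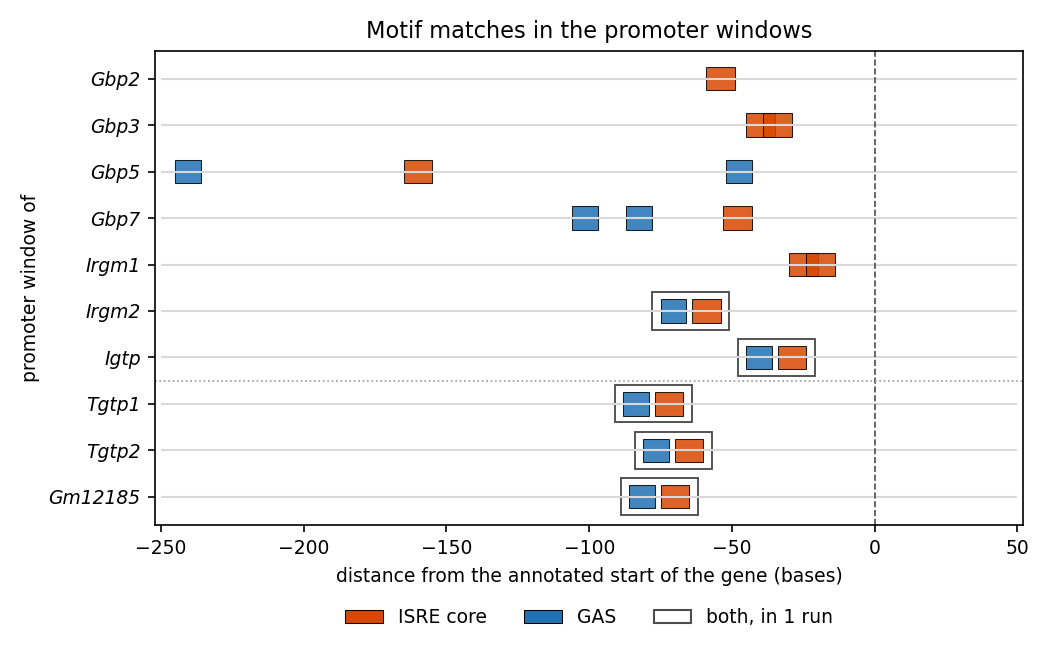
Position of each ISRE core (orange) and GAS (blue) in the windows of 7 members and, under the dotted line, of 3 other IRG genes, in bases from the annotated start. Boxes frame the joint run of both elements, which lies between -88 and -45 at its left end in Irgm2, Igtp, Tgtp1, Tgtp2 and Gm12185.

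The genes that carry the interferon signal to the members were tested as a list of 24, of which 21 were measured. Of 19 tested, 15 rose and 0 fell (31.5% and 31.3% of all tested genes), and 4 did not pass the test. At an unadjusted p under 0.05 with edgeR, and in DESeq2, 0 fell as well. The median log2 fold change was 0.70. These counts were partly set by the filter on low counts. Irf9, Irf8 and Batf2 passed it only through LLC with BMSCs, and Ciita, which was lower there, did not pass it. With at least 10 counts in every library, 12 genes of the list rose. Of the interferons on the list only Ifng was measured. Ifng, the ligand of the gamma receptor, had 0, 0 and 0 counts in LLC alone and 4, 1 and 0 in LLC with BMSCs and was not tested.

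The 4 receptor chains rose, and so did Irf1, Stat2 and Irf9 among the transcription factors. Ifngr1 and Ifngr2, the chains of the gamma receptor, rose by 0.65 ± 0.074 (SE) and 1.14 ± 0.062 (SE). Ifnar1 and Ifnar2, the chains of the type I receptor, rose by 0.57 ± 0.08 (SE) and 0.63 ± 0.057 (SE), and the adjusted p of the 4 chains was at most 5.46e-04 with edgeR. Irf1, which binds the ISRE of GBP genes, had 682, 736 and 691 normalized counts in LLC alone and 4125, 4272 and 4226 in LLC with BMSCs, a log2 fold change of 2.58 ± 0.061 (SE, edgeR adjusted p = 1.02e-07). This was close to the 2.61 of Irgm1 but far from Gbp2, Gbp3 and Gbp7, at 6.75, 7.48 and 6.41. The part of Irf1 in the levels of the members was not tested. Stat2 rose by 3.58 ± 0.067 (SE, edgeR adjusted p = 7.59e-08). Irf2, a factor that competes with Irf1 for its sites, stood at 0.16 (adjusted p = 0.126 with edgeR). Ciita, which controls class II antigen presentation, was not tested, at 18, 7 and 19 counts in LLC alone and 9, 3 and 7 in LLC with BMSCs.

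Irf9, the partner of Stat2, had 10.2, 0 and 0 normalized counts in LLC alone and 652, 467 and 455 in LLC with BMSCs, a log2 fold change of 7.07 ± 0.517 (SE, edgeR adjusted p = 2.03e-05). The size of this change rests on LLC alone replicate 1, which held all the Irf9 counts of its group, and the fitted value was 12.02 without it, where the group is at 0 and the value depends on the prior count. Usp18, which damps type I interferon signalling, rose by 5.02 ± 0.176 (SE, edgeR adjusted p = 5.95e-07). Of the other listed genes, named here after their values were seen, the inhibitor Socs3 rose by 2.04, while Socs1 stood at 0.04 (adjusted p = 0.766 with edgeR).

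Genes whose proteins work with GBPs and IRGs moved in both directions. Of 26 tested partners in autophagy, vacuole tagging and inflammasomes, 7 rose and 14 fell (31.5% and 31.3% of all tested genes), and their median was -0.27 on the log2 scale. The LC3 and GABARAP genes, whose proteins help to bring IRGs and GBPs to vacuoles, fell in 5 of 5 cases. They were singled out after their values were seen. Gabarap had 6346, 5625 and 7847 normalized counts in LLC alone and 2631, 2586 and 2611 in LLC with BMSCs, a log2 fold change of -1.34 ± 0.116 (SE, edgeR adjusted p = 4.67e-05). Sqstm1, the autophagy receptor p62, fell by 2.07 ± 0.061 on the log2 scale (SE, edgeR adjusted p = 3.03e-07), and Lgals3, which binds glycans on broken vacuoles, fell by 1.63 ± 0.092 (SE, edgeR adjusted p = 5.54e-06).

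The partners with the largest rises at a mean of at least 100 normalized counts were Nlrp3, Gsdmd and Trim21. Nlrp3, an inflammasome sensor, had 20.6, 24.5 and 27.4 normalized counts in LLC alone and 302, 303 and 312 in LLC with BMSCs, a log2 fold change of 3.66 ± 0.127 (SE, edgeR adjusted p = 5.82e-07). Gsdmd, the pore former of pyroptosis, rose by 1.33 and the ubiquitin ligase Trim21 by 1.28 (adjusted p = 4.89e-05 and 7.89e-06 with edgeR). Of the other inflammasome genes on the list, 4 are named after their values were seen. The sensor Aim2 fell by 0.54 and the caspase Casp4 by 0.59 on the log2 scale (adjusted p = 9e-05 and 0.000828 with edgeR). Casp1 stood at -0.25 (adjusted p = 0.0446 with edgeR). Its call was lost without LLC alone replicate 3 and without any 1 of the LLC with BMSCs libraries (adjusted p = 0.0782 to 0.118 with edgeR). It was also lost in DESeq2 (adjusted p = 0.0661) and in limma (adjusted p = 0.0525 and 0.0518). With edgeR it was lost as well without TMM scaling, without the filter on low counts and with replicate as a block (adjusted p = 0.0557 to 0.059). Il18 stood at 0.30 (adjusted p = 0.285 with edgeR), and at 0.57 (adjusted p = 0.037 with edgeR) without LLC alone replicate 3. Of the 10 enzymes that add or trim the lipid anchors of GBP and IRG proteins, 3 rose and 3 fell (31.5% and 31.3% of all tested genes). The largest values were 0.49 for Icmt, 0.26 for Metap1 and 0.23 for Nmt2, and -0.58 for Rce1, -0.40 for Fntb and -0.24 for Fnta. The call of Fnta was lost without any 1 of the LLC with BMSCs libraries (adjusted p = 0.0533 to 0.098 with edgeR), and that of Nmt2 without LLC with BMSCs replicate 3 (adjusted p = 0.052 with edgeR) and with length trends removed, at 0.02 (adjusted p = 0.618).

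The members lie in 5 clusters in the reference annotation, with Gbp5, Gbp7, Gbp3 and Gbp2 next to each other on chromosome 3, Gbp9 and Gbp6 on chromosome 5, Irgm1 in one cluster of chromosome 11 and Igtp and Irgm2 in another, and Iigp1 on chromosome 18. Of the 30 nearest tested genes outside the families, up to 3 on each side of a cluster, 9 rose, 9 fell and 12 did not pass the test, beside 31.5% and 31.3% of all tested genes that rose and fell. Next to the chromosome 3 GBP genes, Ccbl2 rose by 1.38 ± 0.077 (SE, edgeR adjusted p = 5.43e-06), while the 6 neighbours ranged from -0.03 to 1.38. Next to Igtp and Irgm2, Zfp692 rose by 0.87 and Zfp672 fell by 1.61 ± 0.103 (SE, edgeR adjusted p = 9.97e-06). Around Iigp1, 5 of 6 neighbours did not pass the test and Rbm22 fell by 0.27. Psme2b, beside Irgm1, rose by 4.14 (3.52 without LLC alone replicate 1) from 0, 2.68 and 2.2 normalized counts, but it is a near-identical copy of Psme2 and its reads are uncertain.

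Depth and the makeup of the sorted cells bear on all of these values. The estimated counts on genes summed to 33476347 to 46189113 per library, so that 3 counts were worth 0.0654 to 0.09 CPM (counts scaled to the library total). LLC alone replicate 3 stood apart by transcript length, its log2 values lying a median of 0.18 above its group for the 20% of genes with the shortest transcripts and at -0.22 for the 20% with the longest. The members ran from 2064 bases for Igtp, longer than 31.6% of tested genes, to 5805 bases for Gbp7, longer than 86.8%. Their median log2 fold change was 4.70 with the trends over length removed and 4.80 without LLC alone replicate 3. With the trends removed, Gbp6 went from 2.28 to 2.07 and Gbp7 from 6.41 to 6.14. In sorted bulk RNA, a larger share of some cells and more RNA per cell cannot be told apart.

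Some markers of other cells differed between the groups. The members themselves summed to 24.9 to 26.5 CPM in LLC alone and to 300 to 314 CPM in LLC with BMSCs. The 14 macrophage markers summed to 28.5 to 32.1 CPM in LLC alone and to 40.1 to 41.8 CPM in LLC with BMSCs. Of 9 tested, 6 rose and 2 fell (31.5% and 31.3% of all tested genes), and C1qa, C1qb, C1qc and Aif1 were at or under 3 counts. In LLC alone Cd14 and Cd68 made up most of that sum. Adgre1, the F4/80 antigen of macrophages, went from 0, 0 and 0 counts in LLC alone to 60, 79 and 63 in LLC with BMSCs, at least 20.55-fold higher. Itgam, which macrophages and neutrophils share, went from 0, 0 and 5 counts to 241, 231 and 240. Adgre1 and Itgam, like several members, were near 0 in LLC alone and present in LLC with BMSCs, but not all macrophage markers were. Cd68 and Cx3cr1 fell, at -0.89 and -1.58 on the log2 scale (adjusted p = 0.000501 and 0.000606 with edgeR). Cd14 stood at 0.07 (adjusted p = 0.587 with edgeR). Neutrophil markers summed to 0.472 to 0.792 CPM and to 18.3 to 21 CPM, and 6 of 6 tested rose (31.5% of all tested genes did). This count was largely set by the filter on low counts, because most of the 6 were near 0 in LLC alone. S100a9 went from 0, 1 and 0 counts to 434, 421 and 522. Ly6g, at 4, 3 and 1 counts in LLC alone and 3, 1 and 1 in LLC with BMSCs, was not tested. T and NK cell markers summed to 0.414 to 0.63 CPM and to 2.51 to 2.76 CPM, but Ptprc made up most of the latter. Ptprc, the only marker of this list that was tested, went from 3, 8 and 8 counts to 96, 112 and 103. Cd3e, Cd3g, Cd4, Klrb1c, Gzma and Prf1 were at or under 3 counts in LLC with BMSCs. Dendritic cell markers summed to 16.0 to 17.4 CPM and to 17.6 to 17.7 CPM, B cell markers to 12.0 to 14.3 CPM and to 14.8 to 18.0 CPM, endothelial markers to 1.07 to 1.32 CPM and to 1.4 to 1.81 CPM, and erythroid markers to 8.66 to 9.04 CPM and to 11.1 to 12.0 CPM. Stromal markers, which BMSCs carry, summed to 370 to 433 CPM and to 817 to 867 CPM, and 11 of 11 tested rose (31.5% of all tested genes did). Col3a1 made up most of both sums and already had 10962, 8030 and 9337 counts in LLC alone. Col1a1 went from 2, 4 and 4 counts in LLC alone to 586, 499 and 477 in LLC with BMSCs. Dcn went from 8, 8 and 8 counts to 506, 526 and 492, so both, like several members, were near 0 in LLC alone. The count of 11 was partly set by the filter on low counts, which Col1a1, Dcn and Lum passed only through LLC with BMSCs. Thy1 had 0, 2 and 1 counts in LLC with BMSCs. Postn had 1, 4 and 0 counts in LLC alone and 4, 5 and 2 in LLC with BMSCs, and neither gene was tested. Of the epithelial markers of the carcinoma, which summed to 158 to 179 CPM and to 188 to 196 CPM, Krt8 had 8265 to 8658 counts in LLC with BMSCs, while Krt7, Krt19 and Epcam were at or under 3 counts there. The part of such cells in the levels of the members was not tested.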

How the data were processed

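RNA was measured by sequencing in sorted LLC cells, in 3 libraries per group (LLC alone, LLC with BMSCs), grouped and numbered from the sample labels. The members and gene lists were chosen with earlier results of these data known. The authors deposited estimated counts (expected counts) for genes and transcripts without normalization, FPKM values scaled by transcript length and library total, and lengths in bases. In the authors' processing HISAT, StringTie, Cufflinks and GATK and the mouse build mm8 are named in the submitters' notes without their roles, and the program that made the counts is not given in the sources used here. Of the genes in a library, 21.9% to 23.2% had a fractional count. Depth was 33476347 to 46189113 counts on genes per library. Sample columns left unmapped numbered 0.

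Estimated counts were rounded and tested with edgeR 4.0.16 in R 4.3.3 (TMM, default filter on low counts, quasi-likelihood test, Benjamini-Hochberg adjustment over 13353 genes, threshold 0.05). The SE is the size of the log2 fold change over the square root of F. The scripts were tested on simulated data. All members were named, with the measured relatives and, from each other list, the 3 largest called rises and falls at a mean of at least 100 normalized counts. Receptor chains and main factors of the interferon list, and neighbours of the clusters, were also named. Neighbours with values were picked after these were seen. Alternatives used DESeq2 1.42.0 and limma 3.58.1 among others. Motifs were searched in RefSeq windows of 300 bases on GRCm38.p6, and windows were aligned with Biopython 1.88. Cluster order and neighbours came from RefSeq positions on GRCm38.p6, and exon overlap came from GENCODE M21 on GRCm38. GRCm38 is not the build that the submitters name.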

Additional observations from a re-analysis of the deposited data

How the results depend on the processing

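The members stayed higher in LLC with BMSCs in each alternative that could be fitted, with 10 of 10 called except with at least 10 counts in every library, a filter that leaves 7 members to test. Their median log2 fold change of 4.92 was 3.37 over those 7, 2.52 with limma on log2(FPKM + 1), 3.48 on log2(FPKM + 0.1), scales that understate the change of low genes, and 4.70 with length trends removed. With each library left out in turn it was 4.80 to 5.20. The relatives outside the members rose in 3 cases with at least 10 counts in every library and in 5 with either limma scale, in place of 15, since fewer genes were tested. With either limma scale, 5 lipid anchor enzymes rose in place of 3, and the cause was not tested. At the stricter threshold of 0.001 with a log2 change of 1 or more in size, the calls were 910 higher and 723 lower genes, 10 members, 8 interferon input genes, 3 partners, 0 lipid anchor enzymes and 2 neighbours. With length trends removed, Atl3 turned to -0.10 (adjusted p = 0.353) and Atl2 passed the test at -0.26 (adjusted p = 0.000634, from 0.107). Socs1, at 0.04 and not called, lay between -0.07 and 0.14 when single libraries were left out. Same-numbered libraries deviated together with r of 0.076, -0.106 and 0.057, and not every library correlated best with its own number, so the numbers were not taken as pairs. With the replicate number as a block, 4161 genes were higher and 4058 lower, the members' median was 4.94, and the calls were 10 members, 15 relatives, 15 interferon input genes, 7 partners, 3 lipid anchor enzymes and 10 neighbours. With 3 libraries a group, an exact permutation test gives no two-sided p below 0.1, so single genes rest on the model. Counts of at most 9 per library in LLC alone limit the folds of Gbp3, Gbp5 and Iigp1 more than their direction.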
